A study of Mus musculus with 2 samples.

Results

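The expression of 5 homeostatic lymphoid chemokines and 5 of their receptors was examined in whole omentum after diphtheria toxin (DT) injection. The chemokine genes were Cxcl12, Cxcl13, Ccl19, Ccl21a and Cxcl16, and the receptor genes were Cxcr4, Ackr3, Cxcr5, Ccr7 and Cxcr6. Members were taken by gene symbol, and all 10 were among the 24346 genes listed for each library. RNA-seq had been performed on 1 WT and 1 Postn-DTR library, both collected 5 days after DT. Postn-DTR mice are heterozygotes in which a diphtheria toxin receptor was inserted into the first coding exon of Postn, made in C57BL/6 zygotes. The WT mice carry no receptor but received DT as well, so the toxin itself was common to both groups. The receptor is driven by the Postn promoter, which the study used to target Aldh1a2+ fibroblastic reticular cells (FRCs) and which other mesenchymal lineages such as myofibroblasts also use. Age, sex and the number of omenta in a library were not given in the sources used here. Values were deposited as FPKM, fragment counts scaled to transcript length and library size.

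Homeostatic chemokines are made by stromal cells, endothelium and myeloid cells, and they guide lymphocytes into lymphoid tissue and position them there. Each acts on G protein-coupled receptors of the migrating cell, and ACKR3 is an atypical receptor that takes up CXCL12 without classical G protein signalling. Milky spots, the lymphoid clusters of the omentum, are known to depend on CXCL13 for their formation. The study sequenced whole omenta to look for the signal by which FRCs recruit lymphocytes, and these families include the classical ones.

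With 1 library per genotype there was no replicate spread, so these data allow no test and hold no replicate check of the differences below. The study also measured chemokine mRNA by quantitative PCR in omenta of further mice, which is not analysed here, and the values below describe these libraries alone. The change of a gene is its log2(FPKM + 1) in Postn-DTR less that in WT, and a gene is said to have fallen or risen only when this reached 2-fold. Among the 13127 genes compared, whose mean FPKM was 1 or more, 3.12% fell and 3.88% rose, and the median change was 0.02. Low FPKM values came in steps of whole fragments, which placed the libraries at about 23300000 and 23900000 fragments. Where the fold of a member is first given below, it is the FPKM ratio. Its 95% exact (Clopper-Pearson) interval on the estimated fragments covers counting error only. Folds of ratios, of sums and of other genes carry no interval. Postn, the targeted gene, had an FPKM of 58.3 for WT and 16.2 for Postn-DTR. The receptor was inserted into Postn itself, so an effect of the insertion and a loss of cells cannot be told apart in this value. Markers of pancreatic acinar cells differed widely between the libraries, and 24 of 24 compared fell, with a summed FPKM of 12230 for WT and 20.4 for Postn-DTR. The FPKM of all listed genes summed to 542190 for WT and 671882 for Postn-DTR. The library with the higher acinar sum thus had the lower total, and the gap in totals lay in other genes. Removing the acinar genes and setting the totals equal moved the median change of all genes to -0.28. Differences of that size therefore cannot be told apart from the scaling.

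Of the 10 genes 4 fell and 0 rose. The genes that fell were 2 ligands, Cxcl12 and Ccl19, and 2 receptors, Cxcr5 and Ccr7. This was 40% of the 10 genes, beside the 3.12% of all genes compared that fell. The genes had been proposed with results of these libraries known, so this share is a description. All 10 passed the minimum mean FPKM. The median change was -0.14 over the 5 ligands and -0.95 over the 5 receptors, beside 0.02 over all genes compared. The receptors were divided, with changes from -1.17 to -0.95 in Cxcr5, Ccr7 and Cxcr6 and of 0.80 and 0.97 in Cxcr4 and Ackr3, so that no gene lay near the middle of their range. The summed FPKM of the 5 ligands was 1325 for WT and 1081 for Postn-DTR, and that of the 5 receptors was 71.3 and 83.0. In whole tissue, fewer cells of a type and less RNA per cell cannot be told apart, which applies to every gene described here.

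**Figure D1:**
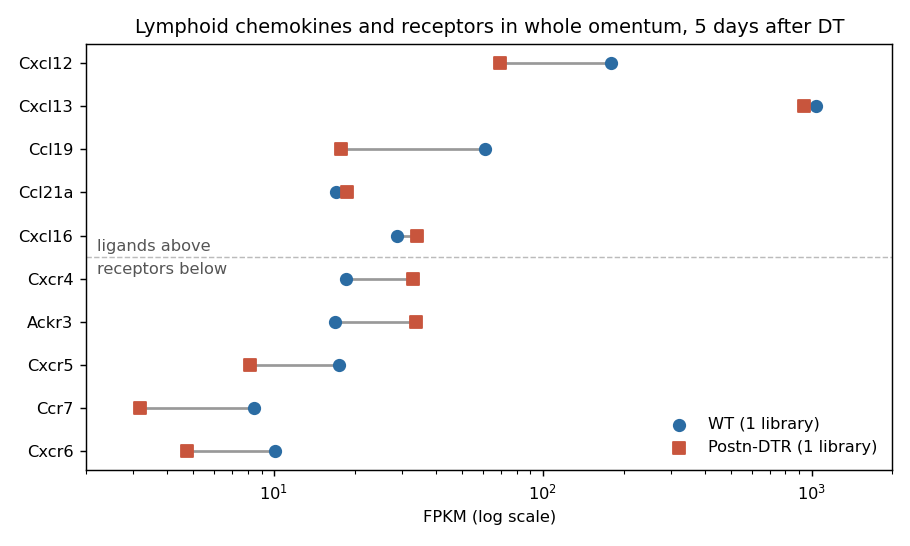
FPKM of the 5 ligands and 5 receptors on a log scale, with 1 point for the WT library and 1 for the Postn-DTR library. The WT point lies to the right for Cxcl12, Cxcl13, Ccl19, Cxcr5, Ccr7 and Cxcr6, and the Postn-DTR point for Ccl21a, Cxcl16, Cxcr4 and Ackr3.

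The proximal promoters of 3 ligands are shown because Cxcl12 and Ccl19 fell together whereas Cxcl13 did not. The windows run from 250 bases before to 50 after the start site, and are from RefSeq on GRCm38.p6. Such a window was found for 7 of the 10 genes. Capitals mark matches on either strand to GGG and CC with any 5 bases between, a loose pattern for NF-kappaB sites, to AGGTCA, the half-site of retinoic acid receptors, and to TATAAA, the TATA box.
Cxcl12 (chr6:117168285-117168584, plus strand): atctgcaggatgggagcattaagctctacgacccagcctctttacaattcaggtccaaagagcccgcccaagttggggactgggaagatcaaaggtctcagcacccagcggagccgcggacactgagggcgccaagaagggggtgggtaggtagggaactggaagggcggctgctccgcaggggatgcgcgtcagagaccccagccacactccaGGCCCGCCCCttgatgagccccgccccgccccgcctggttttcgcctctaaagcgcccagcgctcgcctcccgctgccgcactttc
Ccl19 (chr4:42756316-42756615, minus strand): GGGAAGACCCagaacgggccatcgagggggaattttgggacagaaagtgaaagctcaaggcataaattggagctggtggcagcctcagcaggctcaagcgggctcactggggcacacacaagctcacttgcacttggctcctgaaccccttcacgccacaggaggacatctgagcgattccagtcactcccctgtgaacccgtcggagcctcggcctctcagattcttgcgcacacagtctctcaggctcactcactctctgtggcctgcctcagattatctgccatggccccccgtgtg
Cxcl13 (chr5:95956689-95956988, plus strand): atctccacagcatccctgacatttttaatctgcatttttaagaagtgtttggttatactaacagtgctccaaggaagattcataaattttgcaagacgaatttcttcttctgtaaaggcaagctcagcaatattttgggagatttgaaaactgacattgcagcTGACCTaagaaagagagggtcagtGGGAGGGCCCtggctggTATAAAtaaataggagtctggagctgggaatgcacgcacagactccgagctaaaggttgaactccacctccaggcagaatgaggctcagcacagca

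Each of these 3 windows held 1 match to the NF-kappaB pattern, which was present in 50.8% of all 32851 RefSeq promoter windows of this length. The AGGTCA half-site, in 16.3% of the windows, and TATAAA, in 13.6%, were each found once in Cxcl13. Neither was found in the windows of Cxcl12 and Ccl19, where the absence refers only to these letters. Among the other members, TATAAA occurred in the windows of Cxcr4 and Ackr3, and none of the 3 patterns in those of Ccl21a and Cxcr6. A match is not evidence of a bound site.

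CXCL12 is made by fibroblasts, pericytes and endothelium and is displayed on high endothelial venules (HEVs), where it acts on rolling lymphocytes. Cxcl12 (ENSMUSG00000061353, chromosome 6, 117168535 to 117181367, plus strand, GRCm38) had an FPKM of 180.0 for WT and 69.5 for Postn-DTR. These values rested on at least about 7000 and 2790 fragments. Cxcl12 fell by 1.36 on the log2 scale and was 2.59-fold lower (95% counting interval, 2.48 to 2.71), and 1.53% of genes compared had a change as low. Its rank among all listed genes went from 421 in WT to 1347 in Postn-DTR. It was the second most abundant of the ligands in both libraries.

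Both receptors of CXCL12 had higher values in the library where the ligand was lower. Cxcr4 (chromosome 1, 128588199 to 128592293, minus strand), which encodes the signalling receptor carried by most leukocytes, had an FPKM of 18.5 for WT and 33 for Postn-DTR. It was 1.79-fold higher (1.63 to 1.96), with a change of 0.80 that 5.87% of genes reached. Ackr3 (chromosome 1, 90203980 to 90216751, plus strand), the scavenger, was at 16.8 and 33.9, or 2.01-fold higher (1.87 to 2.16). Its change of 0.97 stayed just under 2-fold because of the pseudocount, and 4.17% of genes had a change as high. The FPKM ratio of Ackr3 to Cxcr4 was 0.911 for WT and 1.03 for Postn-DTR. The FPKM ratio of Cxcl12 to Cxcr4 was 9.74 for WT and 2.11 for Postn-DTR, a 4.62-fold difference, and that of Cxcl12 to Ackr3 was 10.7 and 2.05, a 5.21-fold difference. Since both genes of such a ratio come from 1 library, it does not move with how the libraries are scaled.

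**Figure D2:**
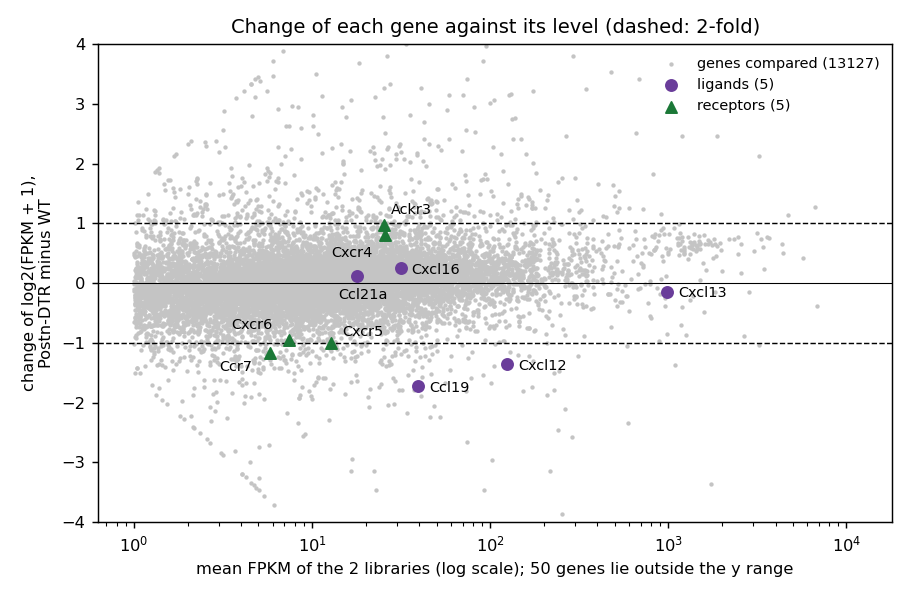
Difference in log2(FPKM + 1) of Postn-DTR from WT against the mean FPKM on a log scale for 13127 genes (grey), with the 5 ligands as circles and the 5 receptors as triangles. Cxcl12, Ccl19, Ccr7 and, narrowly, Cxcr5 lie under the lower dashed line at 2-fold, Cxcr6 lies just inside it, and Ackr3 just inside the upper line. The y axis leaves out 50 genes.

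CXCL13 attracts B cells through CXCR5 and is made by follicular stroma and by macrophages of body cavities. Cxcl13 (chromosome 5, 95956951 to 95961068, plus strand) was by far the most abundant of the ligands. It had an FPKM of 1038 for WT and 940.4 for Postn-DTR, and ranked 76 and 116 among all listed genes. Its change was -0.14, a 1.10-fold difference (1.08 to 1.12), which is smaller than the shift between scalings. It made up 78.4% of the summed ligand FPKM in WT and 87.0% in Postn-DTR, while Cxcl12 made up 13.6% and 6.43%. Cxcr5 (chromosome 9, 44511787 to 44561877, minus strand), the receptor of follicular B cells and follicular helper T cells, went from 17.4 to 8.17. It was 2.13-fold lower (1.91 to 2.39), and its change of -1.01 lay only just past the 2-fold limit. It was within 2-fold when both libraries were set to the same Gapdh FPKM and with a pseudocount of 5. The ratio of Cxcl13 to Cxcr5 was 59.6 for WT and 115.1 for Postn-DTR, or 1.93-fold higher.

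CCL19 and CCL21 are the ligands of CCR7, by which naive T cells and mature dendritic cells reach and stay in T cell zones. Ccl19 (ENSMUSG00000071005, chromosome 4, 42754525 to 42756577, minus strand), a product of FRCs, had an FPKM of 61.1 for WT and 17.8 for Postn-DTR. It was 3.44-fold lower (2.97 to 4.0) on about 762 and 232 fragments. Its change was -1.73 in this pair of libraries, and 0.967% of all genes compared were as low. Ccl21a (chromosome 4, 42772860 to 42773993, minus strand), which lies beside it and is made by FRCs and lymphatic endothelium, had an FPKM of 17.0 for WT and 18.6 for Postn-DTR. The interval of its ratio, 0.922 to 1.29, included 1, so no difference was detectable at this depth. These neighbours thus had unlike values, and the FPKM ratio of Ccl19 to Ccl21a was 3.59 for WT and 0.955 for Postn-DTR. Ccl19 was the third most abundant ligand in WT and the least abundant in Postn-DTR. By quantitative PCR in further mice, the paper reports lower Cxcl12 but comparable Ccl19 in Postn-DTR omenta. This pair of libraries thus differs from that PCR for Ccl19.

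The value of Ccl21a is uncertain because the mouse genome carries near-identical copies. The annotated Ccl21b transcript was 99.5% identical to Ccl21a over 402 bases, and that of Gm13304 99.4% identical over 837. Ccl21b, Ccl21c and Gm13304 were listed at 0 in both libraries. How fragments that match several copies were assigned was not given in the sources used here. Ccr7 (chromosome 11, 99144196 to 99155077, minus strand) had the lowest FPKM of the 10 genes, at 8.45 for WT and 3.18 for Postn-DTR. It was 2.65-fold lower (2.17 to 3.26) on about 348 and 135 fragments, with a change of -1.17. It was within 2-fold with a pseudocount of 5. The ratio of Ccl19 to Ccr7 was 7.24 for WT and 5.59 for Postn-DTR, while that of Ccl21a to Ccr7 was 2.02 and 5.85. With the 2 ligands summed, the ratio was 9.25 for WT and 11.4 for Postn-DTR.

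CXCL16 is a membrane-bound chemokine of macrophages, dendritic cells and endothelium that is shed by ADAM10, and its receptor CXCR6 marks effector and innate-like T cells, natural killer T cells and innate lymphoid cells. Cxcl16 (chromosome 11, 70453983 to 70459984, minus strand) had an FPKM of 28.6 for WT and 34.2 for Postn-DTR. Its change of 0.25 became -0.084 at equal totals without acinar genes, so its direction depended on the scaling. Cxcr6 (chromosome 9, 123806475 to 123811760, plus strand) was at 10.1 for WT and 4.76 for Postn-DTR. It was 2.12-fold lower (1.78 to 2.53), and its change of -0.95 stayed within 2-fold on the log2(FPKM + 1) scale. On the FPKM ratio without a pseudocount it was past 2-fold, as was Ackr3 in the other direction. By that measure, which was added after the data were seen, 5 of the 10 genes were lower and 1 was higher, beside 4.97% and 4.9% of 13074 genes. The ratio of Cxcl16 to Cxcr6 was 2.84 for WT and 7.18 for Postn-DTR, or 2.53-fold higher. For Adam10 the FPKM was 25.1 and 27.7.

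**Figure D3:**
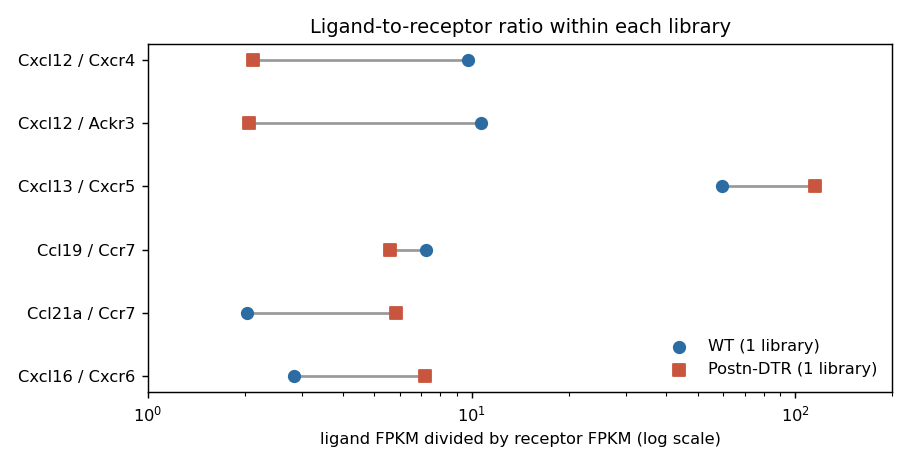
Ligand FPKM divided by receptor FPKM on a log scale for 6 ligand and receptor pairs, with 1 point for each library. The Cxcl12 ratios moved left, from 9.74 to 2.11 with Cxcr4 and from 10.7 to 2.05 with Ackr3, whereas the ratios of Cxcl13, Ccl21a and Cxcl16 to their receptors moved right.

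Transcripts of the cells that carry these receptors differed as well. All 10 T cell markers had lower values in Postn-DTR and 5 fell, with a median change of -0.98 beside 0.02 over all genes compared, and a summed FPKM of 98.0 for WT and 44.2 for Postn-DTR, a 2.22-fold difference. Relative to this sum, Ccr7 was 8.62% for WT and 7.19% for Postn-DTR, and Cxcr6 was 10.3% and 10.8%. Both receptors therefore differed by about as much as the T cell markers did. The part of T cell content in these differences was not tested. Of the other genes of naive and memory T cells, Tcf7 had an FPKM of 16.2 and 7.99 and Il7r of 10.1 and 6.92. The 9 innate and innate-like lymphocyte markers gave no such difference in sum, at 55.9 and 57.8. The 8 of them that were compared had a median change of -0.44, and 1, Tbx21, fell from 3.61 to 1.22. Mature dendritic cells also carry CCR7, and 3 of 8 dendritic cell markers fell (median change -0.54), among them Flt3 from 6.56 to 1.49 and Clec9a from 5.85 to 1.62. Genes of mature dendritic cells did not pass 2-fold, with Fscn1 at 34.5 and 21.9, Cacnb3 at 29.5 and 29.4, and Ccl22 at 5.36 and 6.27.

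For B cells the comparison depended on the markers. The 8 B cell markers had a median change of -0.59 and a summed FPKM of 528.0 for WT and 378.7 for Postn-DTR. All had lower values, but only Ms4a1 (CD20) fell, from 56.8 to 23.6, and Cd79a was at 190.9 and 169.6. Cxcr5 was 3.30% of the B cell sum in WT and 2.16% in Postn-DTR. Both markers of B2 B cells, the recirculating subset, fell. Fcer2a (CD23) went from 30.6 to 3.10 and Cr2 (CD21) from 5.25 to 0.573. Their median change was -2.47 and their sum was 9.75-fold lower. The 2.13-fold difference of Cxcr5 lay between this and the 1.39-fold difference of the B cell sum, and the part of B cell content in it was not tested.

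Cxcr4 went against the lymphocyte markers. It was 2.95% of the summed T and B cell markers in WT and 7.8% in Postn-DTR. Other cells that carry CXCR4 had higher marker values in Postn-DTR. All 8 macrophage markers were higher and 3 rose (median change 0.90), with a sum of 3571 and 5871, and Cxcr4 was 0.517% of this sum in WT and 0.562% in Postn-DTR. Of 7 neutrophil markers 4 rose and 1 fell (median change 1.10), with a sum of 380.8 and 696.3, and Cxcr4 was 4.85% and 4.74% of it. Retnlg rose from 12.8 to 72.6 and Cxcr2, the receptor of mature neutrophils, from 0.513 to 4.03, while Camp, a granule gene of immature neutrophils, fell from 33.1 to 8.98. Lyz2 (2459 and 3563) and C1qa (726.8 and 1282) supplied most of the macrophage sum. S100a8 (169.7 and 338.6) and S100a9 (156.6 and 249.3) supplied most of the neutrophil sum, so these shares of Cxcr4 rest on few genes. The part of macrophages and neutrophils in the Cxcr4 value was not tested. Except for T and B cells beside Ccr7, Cxcr6, Cxcr5 and Cxcr4, these marker lists were set beside the members after the data had been seen.

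The ligands were compared with markers of the stromal cells that make them. Of 9 FRC markers 2 fell, Dpt from 236.9 to 67.3 and Matn2 from 24.7 to 9.91, while Pdgfra was at 26.0 and 29.2 and Pdpn at 46.6 and 57.1. Their sum was 806.0 for WT and 500.5 for Postn-DTR, 1.61-fold lower, with a median change of -0.44, which was a smaller difference than those of Cxcl12 and Ccl19. As a share of this sum, Cxcl12 went from 22.3% to 13.9% and Ccl19 from 7.58% to 3.55%. These shares depend on the markers summed, since Col4a1, at 273.7 and 168.6, and Dpt supplied most of the WT sum. Dpt was 3.52-fold and Matn2 2.5-fold lower, beside 3.44-fold for Ccl19 and 2.59-fold for Cxcl12. The other FRC markers stayed within 2-fold on the values as deposited. Of 5 pericyte and smooth muscle markers 1 fell, Rgs5, a pericyte gene, from 30.6 to 2.56, and Cspg4 (NG2) was at 7.6 and 3.6, with a median change of -0.90. None of the 7 blood endothelial markers passed 2-fold (median change -0.13), and their sum was 268.1 for WT and 264.2 for Postn-DTR. Ackr3, which endothelium expresses, was 6.28% of this sum in WT and 12.8% in Postn-DTR. Of 6 HEV genes 1 fell, Glycam1, from 10.6 to 0.775, and Fut7, which encodes a fucosyltransferase, was at 1.65 and 0.399. Fut7 was 4.14-fold lower by FPKM ratio, but its change of -0.92 stayed within 2-fold because of the pseudocount. With a pseudocount of 0.1, 2 of the 6 fell, beside 4.9% of all genes compared. The other 4 were Madcam1 at 1.51 and 0.988, Gcnt1 at 3.44 and 3.17, Nkx2-3 at 3.62 and 3.61 and Chst4 at 1.43 and 1.80, and the median change of the 6 was -0.22. Lymphatic endothelium, a source of CCL21, had a marker sum of 113.3 and 101.1, but Prox1, its defining transcription factor, was near 0 at 0.0218 and 0.0738, and Lyve1, which macrophages share, supplied most of the sum. No mesothelial marker other than Lrrn4, at 62.7 and 29.2, passed 2-fold among 4, and no adipocyte marker did among 5, with median changes of 0.03 and -0.15. The medians of the lymphatic markers, 0.21, and of the mesothelial markers became negative at equal totals without acinar genes. At those totals all 9 FRC markers were lower and 4 fell, with a median of -0.76. Of 5 pericyte and smooth muscle markers 4 fell (median -1.165). For blood endothelium 1 of 7 fell (median -0.46), and for adipocytes 1 of 5 (median -0.48). Of all genes compared 5.86% fell at that scaling. The part of stromal cell content in the ligand values was not tested.

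Of 10 further homeostatic and tissue chemokines 5 were compared and none passed 2-fold, with a median change of -0.10. Ccl27a, a skin chemokine with an FPKM of 12.1 and 10.4, was the most abundant of them, and Xcl1, which attracts cross-presenting dendritic cells, was at 7.87 and 4.42. Of 9 further receptors 8 were compared, and 3 fell and none rose (median change -0.65), beside 3.12% and 3.88% of all genes compared. The genes that fell were Cx3cr1, the fractalkine receptor of monocytes and macrophages (16.6 and 4.92), Ccr6, a receptor of B cells and innate lymphocytes (7.18 and 2.78), and Xcr1, the XCL1 receptor (2.77 and 0.517). Their ligands did not pass 2-fold, with Cx3cl1 at 4.84 and 4.44 and Ccl20 under the expression minimum. Among the atypical receptors, Ackr1, the venular chemokine transporter, was at 29.4 and 37.8, Ackr4, the scavenger of CCL19 and CCL21, at 3.49 and 4.02, and Ackr2, the scavenger of inflammatory CC chemokines, at 1.61 and 0.753. Ccrl2, which presents chemerin, was at 3.08 and 7.02, with a change of 0.98. The near-2-fold value of Ackr3 was therefore matched by Ccrl2 alone among these.

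None of 10 genes for shedding, cleavage and heparan sulfate display of the chemokines passed 2-fold, and their median change was 0.17. Dpp4 (CD26), a peptidase that inactivates CXCL12, had an FPKM of 16.3 for WT and 12.8 for Postn-DTR. Sdc4, a heparan sulfate proteoglycan, had the largest change of the 10, at 0.90, with an FPKM of 81.2 and 152.2. Of 13 genes of receptor signalling 1 rose and 1 fell, beside 3.88% and 3.12% of all genes compared, with a median change of 0.22. At equal totals without acinar genes this median became -0.12, and that of the shedding and display genes -0.17. Rgs1, which shortens G protein signals of chemokine receptors in lymphocytes and is itself activation-induced, rose from 2.02 to 13.3, and Adrbk2 (GRK3), a kinase that phosphorylates CXCR4, fell from 8.09 to 2.45. Gnai2, the main G protein subunit of these receptors, was at 300.5 and 294.3.

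**Figure D4:**
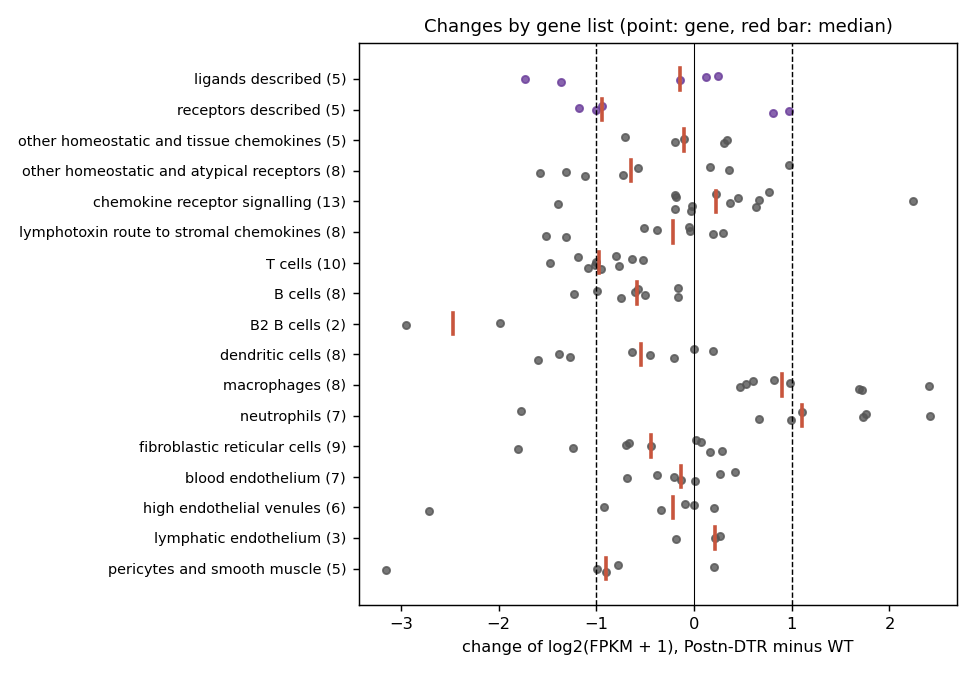
Difference in log2(FPKM + 1) of Postn-DTR from WT for the genes compared of 17 lists (points) with the median of each list (red bar) and dashed lines at 2-fold. T cell, B cell and B2 B cell genes lie left of 0, all 8 macrophage genes lie right of 0, and the receptors described here fall on both sides.

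Lymphotoxin made by lymphocytes acts on stromal cells through LTBR and non-canonical NF-kappaB, a known route to CXCL13, CCL19 and CCL21. Of 8 genes of this route compared, 2 fell, beside 3.12% of all genes compared. Both were ligands, and the median change of the 8 was -0.22. Ltb fell from 69.3 to 23.6 and Lta from 5.74 to 1.72, whereas Ltbr was at 48.4 and 55.4, Relb at 25.1 and 24.2 and Nfkb2 at 42.8 and 29.6. Of 11 genes of other lymphocyte guidance cues 3 rose and 1 fell, beside 3.88% and 3.12% of all genes compared. The median change of the 11, 0.21, became -0.12 at equal totals without acinar genes. Gpr183 (EBI2), the oxysterol receptor that positions B cells, fell from 7.66 to 2.92, while Ch25h, which starts the synthesis of its ligand, rose from 6.90 to 16.2. Sphk1, a kinase that makes sphingosine 1-phosphate, rose from 3.79 to 22.0, and Klf2, a transcription factor of naive lymphocytes and of endothelium, from 96.2 to 246.8. S1pr1, the receptor for egress, was at 36.8 and 42.8.

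How many of the 10 genes were counted as fallen depended on the threshold and on the pseudocount. Cxcl12 and Ccl19 were past 2-fold under every pseudocount and scaling tried. These alternatives reuse the same libraries, so they are no replicate check. With a pseudocount of 0.1, 5 genes fell and 1 rose, beside 4.9% and 4.89% of all genes, and with a pseudocount of 5, 2 fell and 0 rose, beside 1.28% and 2.19%. At a 1.5-fold threshold 5 fell and 2 rose, beside 8.84% and 9.86%, and at 3-fold Ccl19 alone fell and 0 rose, beside 1.17% and 1.52%. The receptors were the genes that moved across the limit, Cxcr6 and Ackr3 with the smaller pseudocount and Cxcr5 and Ccr7 with the larger. Without a minimum level 4 fell and 0 rose, beside 1.73% and 2.16%, and with a minimum of 10, which leaves out Ccr7 and Cxcr6, 3 fell and 0 rose, beside 2.4% and 4.2%. Under the other scalings the counts were between 3 and 5. Centred on the median gene, 4 fell and 0 rose, beside 3.31% and 3.72%, and at equal 75th percentiles 5 fell and 0 rose, beside 3.63% and 3.44%. At equal totals without acinar genes 5 fell and 0 rose, beside 5.86% and 2.27%, and at equal Gapdh FPKM 3 fell and 0 rose, beside 3.06% and 3.98%.

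**Figure D5:**
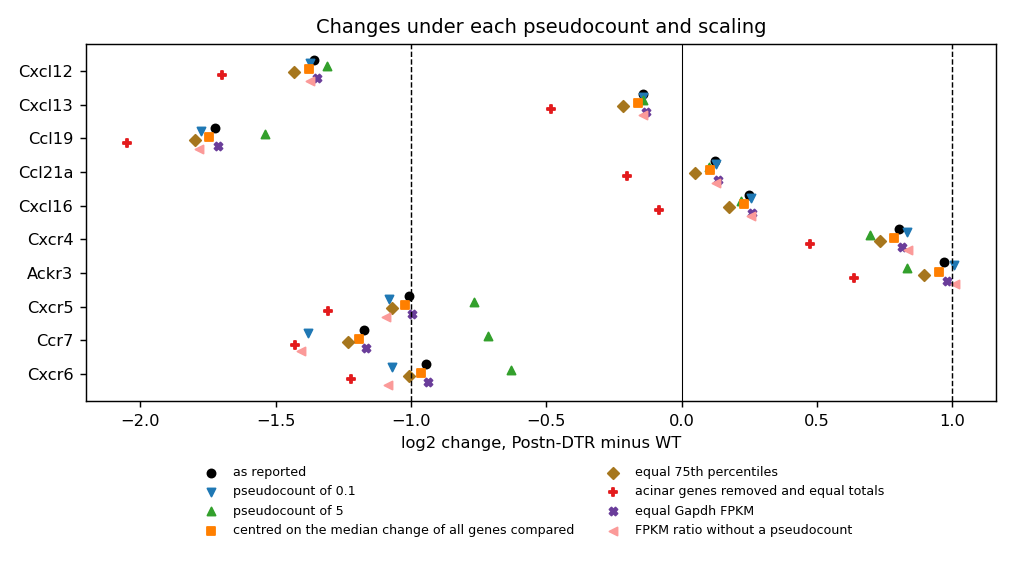
Log2 change of each of the 10 genes, Postn-DTR minus WT, as reported and under 7 other pseudocounts and scalings, with dashed lines at 2-fold. Cxcl12 and Ccl19 stay left of the lower line in all 8, Cxcr5, Ccr7 and Cxcr6 lie on either side of it, and Ccl21a and Cxcl16 cross 0 at equal totals without acinar genes.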

How the data were processed

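Whole omental RNA was sequenced 5 days after DT in 1 library per genotype. Libraries were made with a stranded mRNA kit, per the labels. The authors deposited FPKM, 1 value per gene symbol. The submitters' processing notes list TopHat2 2.1.1, Bowtie2 2.2.8, SAMtools 0.1.18 and Cuffdiff 2.2.1 with build mm10. The annotation was not given in the sources used here, and FPKM state no depth.

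Changes were computed as log2(FPKM + 1), Postn-DTR minus WT, for genes averaging 1 FPKM or more (Python 3.11.15, pandas 2.3.3, scipy 1.17.1). Depth was estimated from values under 0.08 FPKM of genes with 1 GENCODE M21 transcript, of which 82.6% (WT) and 82.1% (Postn-DTR) fell within 0.1 of a whole fragment. These shares come from the values that gave the estimate. Fragments of a gene used its shortest basic coding transcript, so they are lower estimates. The depth fit was tested on simulated counts. The calls were run on WT values with set fold changes and no noise, which checks the code and not the calls between these libraries. Positions are from GENCODE M21 (GRCm38). The 26 gene lists, members included, were chosen with earlier results of these data known. Named genes were the members and, from each list, genes past 2-fold or most abundant, and others of known role named after their values were seen. In all, 11 alternatives were tried.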

Additional observations from a re-analysis of the deposited data

How the results depend on the processing

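All values rest on 1 library per genotype, so animal, batch and genotype cannot be told apart. No paired analysis was possible because each genotype has 1 library. The number of genes that fell, 4 of 10, was between 3 and 5 under 9 of 11 alternatives, became 2 with a pseudocount of 5 (Cxcl12 and Ccl19) and 1 with a 3-fold threshold (Ccl19). The number that rose, 0, became 1 with a pseudocount of 0.1 and without a pseudocount (Ackr3 in both), and 2 with a 1.5-fold threshold (Cxcr4 and Ackr3), where 9.86% of all genes rose. The median of the ligands, -0.14, became -0.22 at equal 75th percentiles and -0.48 at equal totals without acinar genes. The median of the receptors, -0.95, became -0.63 with a pseudocount of 5, -1.22 at those equal totals and 0.80 with a minimum mean FPKM of 10, which leaves out Ccr7 and Cxcr6 by construction. Cxcl12, Cxcl13, Ccl19 and the 5 receptors kept their direction under all 7 other pseudocounts and scalings, and Ccl21a (-0.20) and Cxcl16 (-0.084) turned at equal totals without acinar genes, as did the medians of the lists for shedding and display, receptor signalling, lymphocyte guidance, lymphatic endothelium and mesothelium.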
